A study of Mus musculus with 28 samples.

Results

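The cathepsins described here are 9 genes that encode lysosomal proteases, Ctsa, Ctsb, Ctsc, Ctsd, Ctsh, Ctsk, Ctsl, Ctss and Ctsz. They were taken as a fixed list of gene symbols, chosen with earlier results of these data known, and make up 9 of the 54532 genes in the read count table. RNA sequencing was performed on murine bone marrow-derived macrophages (BMDMs), which are macrophages grown from marrow in M-CSF, in 6 groups with 28 cultures in all. Cells received PBS (control, n = 5 at each time), human plasma-derived von Willebrand factor (VWF, 10 μg/ml, n = 5 at each time) or lipopolysaccharide (LPS, 100 ng/ml, n = 4 at each time) for 3.5 h or 16 h. All groups shared the M-CSF medium and the added CaCl2. VWF is a plasma glycoprotein best known for capturing platelets, and LPS is a bacterial membrane component that activates macrophages through TLR4. The labels call the replicates biological without saying whether they came from separate mice, so p-values measure the spread between these cultures only.

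Cathepsins are made as inactive precursors, sorted to lysosomes and activated there, where they break down proteins taken up or recycled by the cell. Most are papain-like cysteine proteases that differ in how they cut. Cathepsin C removes dipeptides and cathepsin H single residues from the N-terminus, cathepsins Z, A and B trim the C-terminus, and cathepsins L, S and K cut within chains, as cathepsin B can too. Cathepsin D is an aspartic endopeptidase and cathepsin A a serine carboxypeptidase. In macrophages and other antigen-presenting cells, cathepsins S and L trim the invariant chain of MHC class II and supply peptides, and endosomal Toll-like receptors are cut by several members. In neutrophils and mast cells, cathepsin C activates the granule serine proteases, and in osteoclasts cathepsin K degrades bone collagen.

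Libraries held between 41131209 and 77699206 counts, with a median of 52986574, and every cathepsin reached the filter of 10 TPM (transcript abundance corrected for gene length and depth) in all 11 comparisons. Values between groups are given as CPM, counts divided by library size and TMM factor, and a gene was called at an adjusted p below 0.05 with a change of at least 2-fold. Fold changes, standard errors and adjusted p-values are from edgeR's quasi-likelihood F test, with adjustment after Benjamini-Hochberg over all genes tested. Scaling differed between groups, as TMM factors were between 0.745 and 0.849 in LPS cultures at 16 h and between 1.04 and 1.24 in their controls. Scaling by total counts alone moved the median log2 fold change of all genes for LPS against control at 3.5 h from -0.017 to -0.54, and at 16 h from -0.029 to -0.57. The same step moved it from 0.0015 to -0.22 for VWF against control at 3.5 h, from 0.016 to 0.30 and from 0.0022 to 0.44 for VWF against LPS at 3.5 h and 16 h, and from -0.014 to 0.14 for the change of the VWF effect with time. The labelled cell type was checked against marker lists. All 8 macrophage markers reached 10 TPM in every group. At 3.5 h, 1 was called higher and 1 lower with VWF (all genes 9.18% and 5.52%). With LPS, 2 were higher and 0 lower (12.8% and 11.8%). At 16 h with VWF, Fcgr1 (log2 fold change 2.89), Adgre1 (1.80) and Itgam (1.18) were called higher and Cd14 (-1.63) lower. With LPS at 16 h, Fcgr1 (4.48), Cd14 (1.60) and Adgre1 (1.11) were higher and Lyz2 (-1.38) lower. The shares of all genes at 16 h were 4.55% and 4.15% with VWF and 15.3% and 12.4% with LPS. The 4 T cell and 4 mast cell markers stayed under 1 TPM in every group. Of the 8 neutrophil markers, Ly6g and Mpo stayed under 1 TPM, while 2 or 3 reached 10 TPM in at least 1 culture of each group. So did between 2 and 4 of the 8 osteoclast markers and 2 of the 4 fibroblast markers. At most 1 of the 4 B cell and 1 of the 5 dendritic cell markers did so in any group. Changes in bulk RNA cannot tell fewer cells of a type from less RNA per cell.

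At 16 h, 3 libraries stood apart. Relative to their groups, short genes lay above long genes by 0.70 on the log2 scale in control replicate 5, by 0.54 in VWF replicate 4 and by 0.70 in LPS replicate 4. This length index was at most 0.37 in the other 25 cultures, and control replicate 4 and VWF replicate 5 at 3.5 h lay as far the other way, at -0.65 and -0.62. Every comparison with a 16 h group was therefore fitted with and without the 3 libraries. Levels include them unless stated. Ctsd read highest of its group in each of those 3 libraries, and Ctsb read lowest of its group in each. Ctsc read lowest in control replicate 5 (78.4 CPM, group median 172 CPM) and in LPS replicate 4 (1124 CPM, group median 1504 CPM), but not in VWF replicate 4. In control replicate 5, Ctsk (10.2 CPM, group median 18.8 CPM) and Ctsh (91.6 CPM, group median 139.9 CPM) also read lowest.

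**Figure D1:**
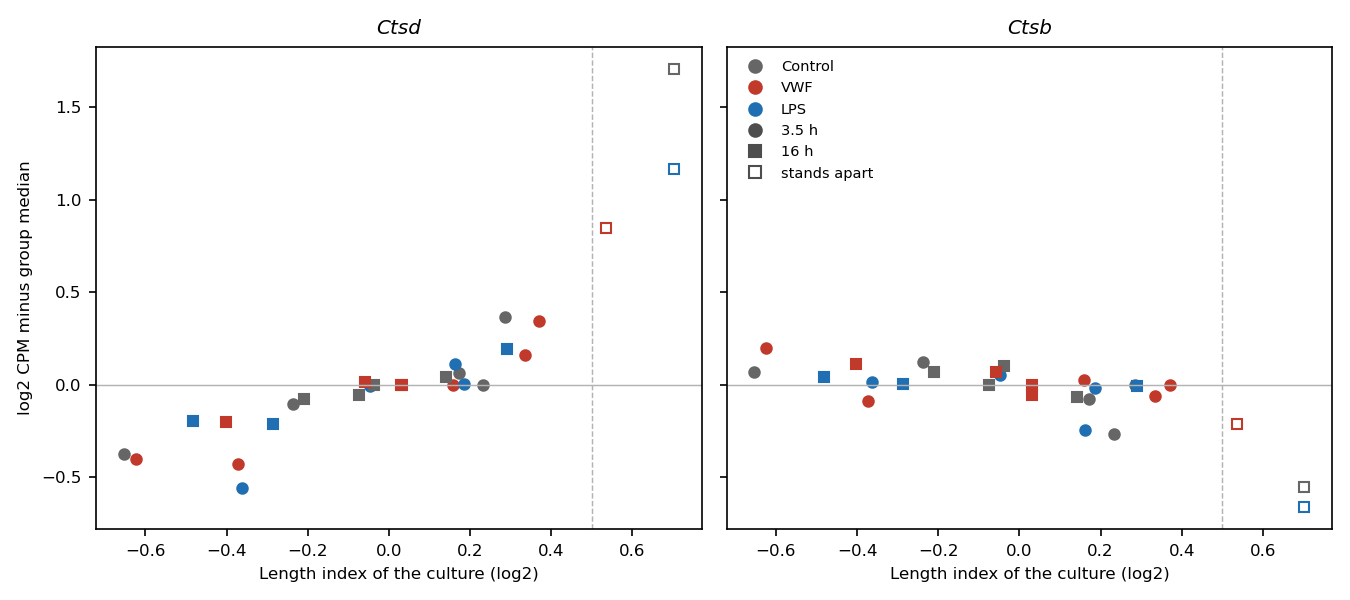
Length index of each culture (log2, median deviation of the shortest of 5 length classes minus that of the longest class) against the log2 CPM of Ctsd (left) and Ctsb (right) minus the median of the same group; circles are 3.5 h, squares 16 h, and open squares the 3 libraries past the dashed line at 0.5. The open squares hold the 3 highest Ctsd deviations of the 28 cultures and the lowest Ctsb value of each 16 h group.

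The genes lie on 6 chromosomes of GRCm38. Ctsk (chr3:95499256-95509362, plus strand) and Ctss (chr3:95526786-95556403, plus strand) are neighbours, 17423 bases apart, and Ctsc (chr7:88278085-88310888, plus strand) and Ctsd (chr7:142375911-142388038, minus strand) share a chromosome at a distance. Ctsa (chr2:164832873-164841032, plus strand) overlaps Neurl2 and Pltp on the other strand over 17.4% of its exon bases, and Ctsb (chr14:63122462-63145923, plus strand) overlaps Fdft1 over 12.8%. Without stated strand-aware counting, reads in those stretches cannot be assigned to either gene. Ctsd shares 34.4% of its exon bases with the gene model Gm49369, and Ctsl (chr13:64359337-64370890, minus strand) 26.8% with Gm47123 and Gm49230, all 3 of which were listed at 0 counts. Ctsh (chr9:90054152-90076089, plus strand) overlaps no other annotated exon, and Ctsz (chr2:174427493-174439039, minus strand) does so over 0.694%.

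The 250 bases before a RefSeq transcription start were read from RefSeq (GRCm38.p6) for 7 of the 9 genes. RefSeq and GENCODE starts differ for some of them, so that 211 bases of the Ctsd window and all 250 of the Ctsl window lie inside the GENCODE gene, as does 1 of the 2 Ctsa windows. Both strands were searched for CACGTG, the E-box of the MiT/TFE factors that drive lysosomal genes, for GAGGAA, an ETS core of the kind bound by the macrophage factor PU.1, and for TGANTCA, an AP-1 site. Over all 32851 promoter windows of this length, 6.02% held the E-box, 23.3% the ETS core and 6.75% the AP-1 site. Windows are shown for Ctsc, Ctsk and Ctsz, which were called for LPS at 16 h, for Ctss, the neighbour of Ctsk, and for Ctsd, which was called in no comparison. Capitals mark the matches, and TTCCTC is the ETS core on the other strand.
Ctsc (chr7:88277835-88278084, plus strand): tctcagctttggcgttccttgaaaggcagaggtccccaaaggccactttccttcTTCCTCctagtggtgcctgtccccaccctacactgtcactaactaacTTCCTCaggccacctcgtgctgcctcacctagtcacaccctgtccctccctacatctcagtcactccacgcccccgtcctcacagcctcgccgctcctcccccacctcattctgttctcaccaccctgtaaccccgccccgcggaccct
Ctsk (chr3:95498960-95499209, plus strand): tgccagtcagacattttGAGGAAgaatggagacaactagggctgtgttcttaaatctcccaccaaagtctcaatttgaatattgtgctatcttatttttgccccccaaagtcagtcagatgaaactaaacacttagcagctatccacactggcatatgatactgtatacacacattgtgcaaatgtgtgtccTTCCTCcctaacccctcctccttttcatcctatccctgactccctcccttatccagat
Ctss (chr3:95526536-95526785, plus strand): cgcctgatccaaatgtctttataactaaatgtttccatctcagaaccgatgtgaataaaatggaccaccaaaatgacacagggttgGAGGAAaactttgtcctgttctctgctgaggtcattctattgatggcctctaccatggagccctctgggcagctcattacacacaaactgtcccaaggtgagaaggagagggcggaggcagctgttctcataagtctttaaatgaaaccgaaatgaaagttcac
Ctsz (chr2:174439040-174439289, minus strand): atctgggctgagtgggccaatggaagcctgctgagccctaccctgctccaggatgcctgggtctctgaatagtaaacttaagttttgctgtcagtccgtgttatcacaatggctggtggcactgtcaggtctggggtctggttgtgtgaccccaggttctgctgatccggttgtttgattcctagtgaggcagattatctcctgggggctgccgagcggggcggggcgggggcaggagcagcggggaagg
Ctsd (chr7:142387828-142388077, minus strand): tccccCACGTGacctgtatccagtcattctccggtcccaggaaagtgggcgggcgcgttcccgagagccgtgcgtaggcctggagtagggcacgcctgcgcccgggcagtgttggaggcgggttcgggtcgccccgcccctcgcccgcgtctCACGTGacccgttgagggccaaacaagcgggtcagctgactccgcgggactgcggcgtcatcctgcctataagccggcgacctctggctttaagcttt

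The ETS core was found 2 times in the Ctsc window, 2 times in that of Ctsk and 1 time in that of Ctss, and not in those of Ctsz, Ctsd, Ctsl and Ctsa. The E-box was found 2 times in the Ctsd window, 1 time in that of Ctsl and 1 time in 1 of the 2 windows of Ctsa, but in none of the 4 other genes. The AP-1 site was in none of the 8 windows. Ctsb and Ctsh were not matched. A match is a run of letters, not a shown binding site.

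Levels of different genes were compared by TPM, with counts divided by the merged exon bases of all annotated transcripts of a gene. Genes whose expressed transcripts are shorter than that read too low, so the order depends on the annotation. These lengths ran from 1358 bases for Ctss to 6489 for Ctsl. In unstimulated BMDMs at 3.5 h, the order by TPM began with Ctsd (11150.4 ± 1149 TPM, SD, n = 5). It ran on through Ctss (9242 ± 287 TPM), Ctsb (6156 ± 916 TPM), Ctsz (2611 ± 149 TPM), Ctsl (1030.2 ± 122 TPM) and Ctsa (643 ± 51.9 TPM). Last came Ctsc (135 ± 20.3 TPM), Ctsh (131 ± 9.91 TPM) and Ctsk (24.6 ± 4.40 TPM). Only Ctsc and Ctsh overlapped among neighbours in that order. Together the 9 genes took 3.11% ± 0.0889 of all TPM in this group, between 2.35% and 3.33% in group means over the 6 groups. Ctss stood first in both agonists at both times, although its cultures overlapped those of Ctsd in all of these groups except LPS at 16 h. With VWF at 16 h the overlap came from replicate 4 alone, where Ctsd read 15711 TPM. Ctsz stood just above Ctsb by mean in both agonists at 16 h, and the cultures of the pair overlapped there and in control at 16 h. Without the 3 libraries that stood apart, Ctsb had the higher mean, at 4427 against 4217 TPM with VWF. With LPS it was then at 4859 against 4461 TPM. In LPS at 16 h, Ctsc (539 ± 148 TPM, SD, n = 4) passed Ctsa (432 ± 58.0 TPM), with overlapping cultures. Ctsk was last in every group, although it overlapped Ctsc in control at 16 h through replicate 5 alone, where Ctsc read 31.5 TPM. By CPM, which favours long transcripts, Ctsb and not Ctsd stood first in control at 3.5 h, and Ctsl stood above Ctsz.

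**Figure D2:**
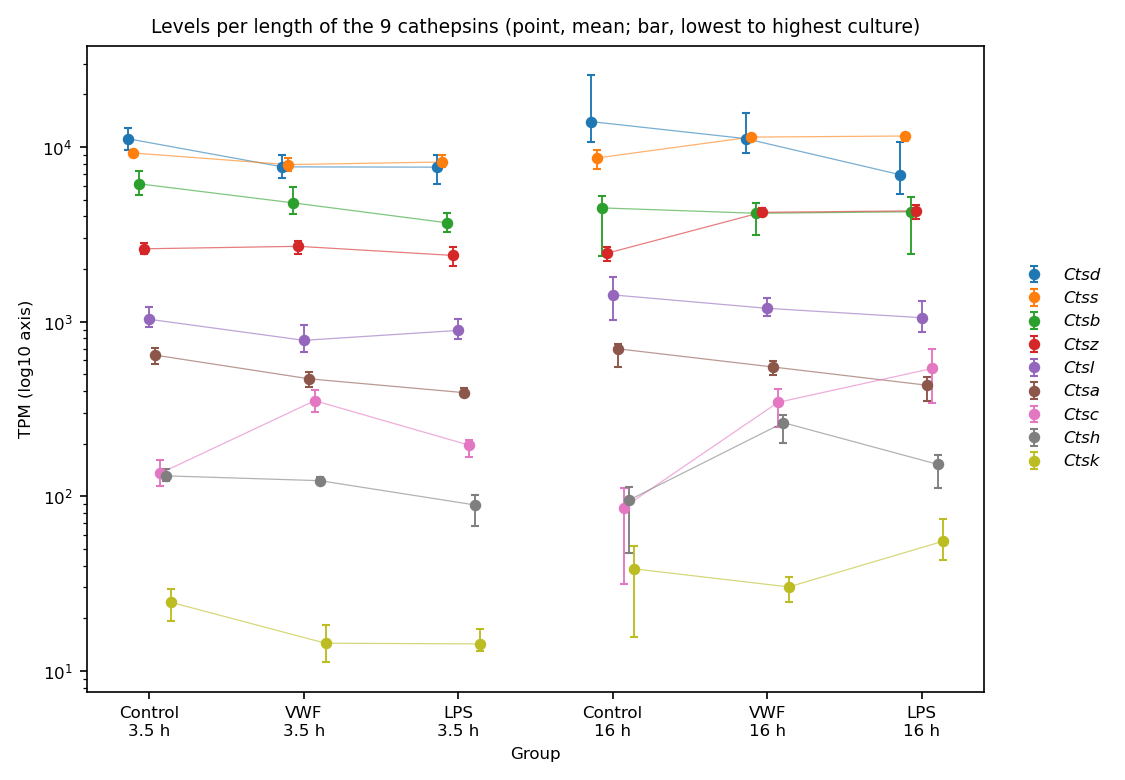
TPM (log10 axis) of the 9 cathepsins in the 6 groups; points are group means, bars run from the lowest to the highest culture, and lines join the groups of one time. The points of Ctsc lie above control in both agonists at both times, while Ctss and Ctsd stay at the top and Ctsk at the bottom.

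Ctsc rose in every comparison of an agonist with control, and it was joined by Ctsh with VWF at 16 h and by Ctsh, Ctsk and Ctsz with LPS at 16 h. At 3.5 h, 1 of 9 cathepsins rose with VWF and 0 fell, where 9.18% of all genes were called higher and 5.52% lower. For LPS 1 rose and 0 fell, where 12.8% of all genes were called higher and 11.8% lower. Without the fold threshold, 4 passed for VWF, where 43.6% of all genes did, and 4 for LPS, where 65.7% did. At 16 h, 2 rose and 0 fell with VWF, where 4.55% of all genes were called higher and 4.15% lower, and 4 rose and 0 fell with LPS, where 15.3% of all genes were called higher and 12.4% lower. By adjusted p alone, 5 passed for VWF, where 27.7% of all genes did, and 5 for LPS, where 53.7% did. Cultures did not overlap for 1 cathepsin in the higher and 0 in the lower direction with VWF at 3.5 h (all genes 21.7% and 13.0%), 4 and 0 with LPS at 3.5 h (27.2% and 26.9%), 4 and 1 with VWF at 16 h (17.6% and 8.27%), and 5 and 1 with LPS at 16 h (25.7% and 21.4%). The median log2 fold change of the 9 genes was -0.13 for VWF and 0.13 for LPS at 3.5 h, and -0.019 for VWF and 0.94 for LPS at 16 h, against medians of all genes between -0.030 and 0.0015. Scaling by total counts left 1 cathepsin called for VWF at 3.5 h, where 612 of 8200 genes were called higher and 643 lower. It left 0 for LPS at 3.5 h, where 708 of 8190 genes were called higher and 2157 lower. At 16 h it left 2 for VWF, where 329 of 7798 genes were called higher and 356 lower. It also left 2 for LPS at 16 h, Ctsc higher and Ctsd lower, where 793 of 7994 genes were called higher and 2253 lower. Both agonists were compared with the same control cultures, so these comparisons are not independent of each other.

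**Figure D3:**
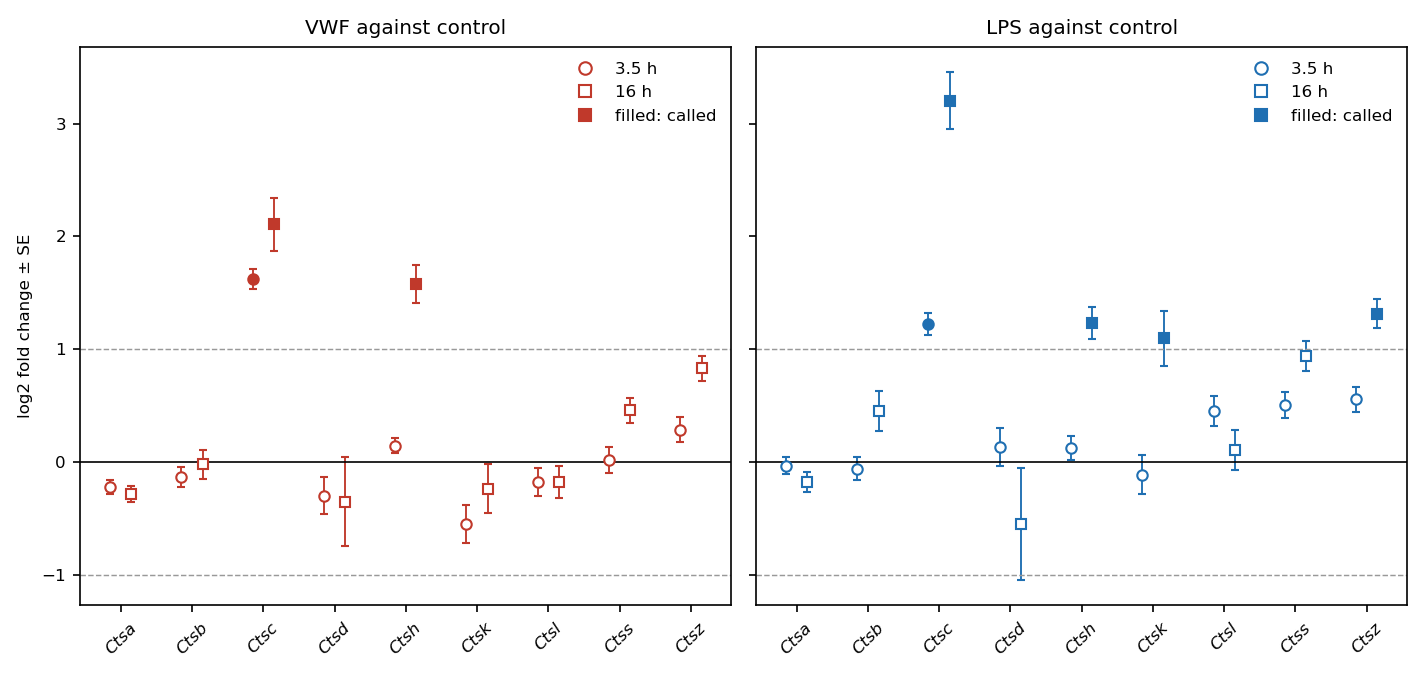
Log2 fold change against control (± SE) of each cathepsin for VWF (left) and LPS (right); circles are 3.5 h, squares 16 h, filled symbols are called genes and dashed lines mark the 2-fold threshold. Ctsc is filled at both times in both panels, and LPS at 16 h has 4 filled squares.

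Of the N-terminal exopeptidases, Ctsc held the largest changes of the family against control. In control BMDMs at 3.5 h, Ctsc, in replicate order, read 203, 247, 225, 255 and 255 CPM, against 659, 744, 753, 869.7 and 807 CPM with VWF and 483, 552, 626 and 622 CPM with LPS. The 3 groups did not overlap, and VWF was highest. The log2 fold change was 1.62 ± 0.090 (SE, adjusted p = 5.90e-08) for VWF and 1.22 ± 0.094 (SE, adjusted p = 5.63e-07) for LPS, and 0.41 ± 0.10 (SE, adjusted p = 0.00616) between VWF and LPS, a difference that passed without the fold threshold only. Under scaling by total counts, Ctsc gave 0.70 with LPS, short of the call, where the median of all genes was -0.54.

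At 16 h, Ctsc read 154, 179, 199, 172 and 78.4 CPM in control, 804, 848, 824, 609 and 554 CPM with VWF and 1449, 1559, 1760.5 and 1124 CPM with LPS. Again the groups did not overlap, and this time LPS was highest. The change was 2.11 ± 0.24 (SE, adjusted p = 8.04e-05) for VWF, a 4.31-fold difference, and 3.20 ± 0.25 (SE, adjusted p = 4.63e-06) for LPS, a 9.20-fold difference. Without the 3 libraries that stood apart, they were 2.01 (adjusted p = 2.03e-06) and 3.14 (adjusted p = 5.32e-09). Between VWF and LPS at 16 h, Ctsc had a log2 fold change of -1.04 ± 0.17 (SE, adjusted p = 3.83e-04). Same-numbered replicates deviated together in this comparison, and with the replicate number as a block the change was -0.95 (adjusted p = 9.34e-06), past the test but short of 2-fold. It was also short of 2-fold without VWF replicate 4 (-0.99), VWF replicate 5 (-0.95) or LPS replicate 3 (-0.97), and under scaling by total counts (-0.61).

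Markers of other cells that the cultures could hold were summed per culture. The 8 neutrophil markers summed to 20.7 to 68.4 TPM in control, 19.9 to 94.0 with VWF and 31.2 to 81.8 with LPS at 3.5 h, and to 37.0 to 100.1, 65.0 to 129 and 42.7 to 91.0 TPM at 16 h. Ly6g and Mpo stayed under 1 TPM in every group. Camp was called higher with VWF at 16 h (3.65 ± 0.86 SE, adjusted p = 0.00929), at low levels of 2.21 ± 0.636 against 0.168 ± 0.266 CPM (SD). S100a9 was called higher with LPS at 3.5 h (1.73 ± 0.63 SE, adjusted p = 0.0307), at 6.10 ± 3.16 against 1.78 ± 1.58 CPM (SD) with overlapping cultures. In that comparison S100a8 passed below 2-fold (0.97, adjusted p = 0.00496). The 5 dendritic cell markers summed to between 0.347 and 1.00 TPM in controls, 8.30 and 10.2 TPM with VWF at 3.5 h, 10.4 and 12.0 TPM with LPS at 3.5 h, 0.561 and 1.68 TPM with VWF at 16 h and 7.41 and 12.4 TPM with LPS at 16 h. Flt3, Siglech and Clec9a stayed under 1 TPM throughout. Xcr1 was called for LPS against control at both times (5.55, adjusted p = 5.81e-09 at 3.5 h and 5.36, adjusted p = 1.85e-05 at 16 h). For VWF against control it did not reach 10 TPM and was not tested. Its mean at 3.5 h was 13.4 ± 2.74 CPM (SD) with VWF, 23.1 ± 2.12 CPM with LPS and 0.485 ± 0.161 CPM in control. Of the B cell markers, Cd79b was called lower with LPS at 16 h (-2.23, adjusted p = 0.00178), and Cd79a and Ms4a1 stayed under 1 TPM in every group. The 4 fibroblast markers ranged over 16.8 to 113, 14.8 to 143 and 11.4 to 47.2 TPM in control, VWF and LPS cultures at 3.5 h and over 3.52 to 63.7, 19.4 to 95.3 and 12.2 to 87.5 TPM at 16 h, and 0 were called against control. The part of other cell types in the Ctsc values was not tested.

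Ctsh encodes an aminopeptidase that also matures surfactant proteins in the lung. At 3.5 h it read 162, 178, 189, 175 and 186 CPM in control, 179, 208, 230.4, 223 and 198 CPM with VWF and 151, 208, 220.4 and 225 CPM with LPS. These groups overlapped, and the changes of 0.15 ± 0.065 (SE, adjusted p = 0.0933) for VWF and 0.13 ± 0.11 (SE, adjusted p = 0.302) for LPS did not pass; both turned negative under scaling by total counts, at -0.074 and -0.40. At 16 h it read 139.9, 138, 155, 152 and 91.6 CPM in control, 435, 459, 454, 512 and 321 CPM with VWF and 323, 357, 336 and 283 CPM with LPS. Every agonist culture lay above every control culture, by 1.58 ± 0.17 (SE, adjusted p = 4.88e-05) for VWF and 1.23 ± 0.14 (SE, adjusted p = 5.75e-05) for LPS.

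Ctsh was the only cathepsin whose value was higher with VWF than with LPS at 16 h among those past the test, at 0.40 ± 0.14 (SE, adjusted p = 0.0290), below 2-fold and with overlapping cultures. Without the 3 libraries that stood apart, this difference was 0.28 (adjusted p = 0.0763) and no longer passed, while the changes against control were 1.42 (adjusted p = 4.14e-06) for VWF and 1.18 (adjusted p = 1.95e-07) for LPS. Under scaling by total counts the LPS change was 0.67, short of the call. The effect of each agonist on Ctsh differed between the times, as the interaction of VWF with time was 1.46 ± 0.17 (SE, adjusted p = 1.21e-06), where 5.47% of all genes were called higher and 8.05% lower, and that of LPS with time was 1.12 ± 0.17 (SE, adjusted p = 4.53e-05), where 13.5% of all genes were called higher and 12.8% lower.

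Among the C-terminal exopeptidases, Ctsz was called and Ctsa and Ctsb were not. Ctsz, whose product trims single residues from the C-terminus, read 1046, 1127, 1303, 1043 and 1195 CPM in control at 3.5 h, 1128, 1459.7, 1719, 1708 and 1347 CPM with VWF and 1482, 1545, 1869 and 2038 CPM with LPS. All LPS cultures lay above all control cultures, while VWF overlapped both. The change was 0.29 ± 0.11 (SE, adjusted p = 0.0487) for VWF and 0.56 ± 0.11 (SE, adjusted p = 9.03e-04) for LPS, below 2-fold in both, and near 0 under scaling by total counts (0.067 and 0.033).

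At 16 h, Ctsz read 1101, 1009.7, 1158, 1156 and 1381 CPM in control, 2065, 2149, 2219, 2576 and 2173 CPM with VWF and 2691, 3160.1, 2919 and 3135 CPM with LPS, with no overlap between any of the 3 groups. LPS gave 1.32 ± 0.13 (SE, adjusted p = 1.79e-05), which was called, and VWF 0.83 ± 0.11 (SE, adjusted p = 2.33e-04), which passed below 2-fold. Without the 3 libraries that stood apart, the changes were 1.37 and 0.86. Scaling by total counts gave 0.79 for LPS, short of the call. The interaction with time was 0.56 ± 0.16 (SE, adjusted p = 0.00873) for VWF and 0.77 ± 0.16 (SE, adjusted p = 7.24e-04) for LPS.

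Ctsa, whose product also shields the sialidase Neu1 and the beta-galactosidase Glb1 in the lysosome, held within 772 and 1113 CPM in all 28 cultures. With VWF it was lower than in control by a small margin at both times, -0.22 ± 0.064 (SE, adjusted p = 0.0152) at 3.5 h and -0.28 ± 0.072 (SE, adjusted p = 0.0131) at 16 h, the latter with no overlap between cultures. For LPS it was -0.031 (adjusted p = 0.733) and -0.17 (adjusted p = 0.130), which did not pass, and its overlap with Pltp and Neurl2 leaves the values uncertain.

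Ctsb, which can act as endopeptidase or C-terminal dipeptidase, ranged between 6169 and 13591 CPM over all cultures and passed no test against control. At 16 h it read 8633, 9495, 9682, 9034 and 6169 CPM in control, 8919, 9272, 10018, 8010.0 and 9716 CPM with VWF and 13209.5, 13146, 13591 and 8334 CPM with LPS. The lowest culture of each group was a library that stood apart, and LPS overlapped the other groups through replicate 4 alone. LPS gave 0.45 ± 0.18 (SE, adjusted p = 0.0578) with all libraries and 0.50 (adjusted p = 3.80e-04) without those 3, where it passed below 2-fold; under scaling by total counts the sign turned (-0.091). VWF gave -0.019 (adjusted p = 0.939), and VWF against LPS -0.42 (adjusted p = 0.0382).

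Of the endopeptidases, Ctss differed from control with LPS at both times and with VWF at 16 h, Ctsl with LPS at 3.5 h, and Ctsk with VWF at 3.5 h and LPS at 16 h, and only the last was called. Ctss, whose product stays active at neutral pH, read 3757, 3814, 4392, 3302 and 3814 CPM in control at 3.5 h, 3190.3, 4207, 4972, 4445 and 3575 CPM with VWF and 5154, 4869, 6466 and 5912 CPM with LPS. The LPS cultures lay above all control cultures, and the VWF cultures overlapped both groups. The change was 0.51 ± 0.11 (SE, adjusted p = 0.00213) for LPS and 0.017 ± 0.11 (SE, adjusted p = 0.930) for VWF, with a difference between VWF and LPS of -0.47 ± 0.13 (SE, adjusted p = 0.0112). Under scaling by total counts both changes against control turned negative, at -0.015 and -0.20. Short genes as a whole were higher with LPS at 3.5 h, with a median of 0.34 in the shortest of 5 length classes and -0.15 in the longest. The Ctss, Ctsz and Ctsk transcripts are short, at 1358, 1441 and 1512 exon bases, and of these Ctsk gave -0.11 with LPS at 3.5 h. The part of length in their values was not tested.

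At 16 h, Ctss read 3450.1, 3461, 4049, 3791 and 4381 CPM in control, 5361, 5549, 5488, 6702 and 5351 CPM with VWF and 6926, 7938, 7009.8 and 8315 CPM with LPS. The groups did not overlap and stood in the order control, VWF, LPS. LPS gave 0.94 ± 0.13 (SE, adjusted p = 2.01e-04) and VWF 0.46 ± 0.11 (SE, adjusted p = 0.0110), both past the test and short of 2-fold. The values without the 3 libraries that stood apart were 0.95 and 0.47. The shortest of 5 length classes of genes had medians of -0.13 for LPS and -0.047 for VWF at this time.

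Ctsl differed between the agonists at 3.5 h. It read 2323, 2269, 2069, 1679.7 and 1809 CPM in control, 1987, 2118, 1962, 1780.1 and 1613 CPM with VWF and 2932, 3044, 2727 and 2805 CPM with LPS. All LPS cultures were above the others, and VWF lay within and just below the control range. LPS gave 0.46 ± 0.13 (SE, adjusted p = 0.0109) against control, which turned to -0.059 under scaling by total counts, VWF gave -0.18 ± 0.12 (SE, adjusted p = 0.288), and VWF against LPS gave -0.62 ± 0.11 (SE, adjusted p = 8.98e-04). In that comparison 0 cathepsins were called, where 4.71% of all genes were called higher and 6.71% lower, and 3 passed by adjusted p alone, where 50.2% of all genes did. At 16 h the 3 groups overlapped, with means of 2972 ± 457 CPM (SD, n = 5) in control and 3279 ± 562 CPM (SD, n = 4) in LPS cultures, and 2843 ± 372 CPM (SD, n = 5) in VWF cultures, and neither agonist passed the test.

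Ctsk was the least abundant member and rose with LPS at 16 h. At 3.5 h it read 13.3, 9.17, 13.8, 11.0 and 9.28 CPM in control, 8.91, 7.62, 9.54, 9.03 and 5.75 CPM with VWF and 10.1, 8.94, 10.5 and 13.8 CPM with LPS. The groups overlapped, and VWF against control gave -0.55 ± 0.17 (SE, adjusted p = 0.0211), below 2-fold, while LPS gave -0.11 ± 0.17 (SE, adjusted p = 0.589). At 16 h it read 24.2, 18.8, 15.2, 22.7 and 10.2 CPM in control, 16.2, 13.6, 17.9, 19.6 and 16.6 CPM with VWF and 48.5, 41.9, 31.7 and 36.6 CPM with LPS.

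Each LPS culture of Ctsk at 16 h lay above each culture of the other 2 groups, which overlapped. LPS gave 1.10 ± 0.25 (SE, adjusted p = 0.00408) against control and VWF -0.23 ± 0.22 (SE, adjusted p = 0.503), while VWF against LPS gave -1.28 ± 0.16 (SE, adjusted p = 6.98e-05), which was called. The LPS change against control was close to the threshold, and its call held under 13 of 18 alternatives. Among those that ended it, the value was short of 2-fold without the 3 libraries that stood apart (0.98), without control replicate 5 (0.95) or LPS replicate 1 (0.97), and under scaling by total counts (0.53). VWF against LPS was -1.37 (adjusted p = 8.35e-05) without those 3 libraries and -0.84 under scaling by total counts, where the call was lost. VWF against control, without the 3 libraries, was -0.43 (adjusted p = 0.0365).

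Of 8 osteoclast markers, 2 were called higher and 2 lower for LPS against control at 16 h, among 5 tested. In that comparison 15.3% of all genes were called higher and 12.4% lower. The summed level of the 8 markers was 171.9 to 279.6 TPM with LPS against 255 to 673 TPM in control. Acp5 (2.84, adjusted p = 4.63e-07) and Ocstamp (2.15, adjusted p = 1.22e-05) were the higher genes and Atp6v0d2 (-2.37, adjusted p = 1.19e-05) and Dcstamp (-1.82, adjusted p = 3.87e-05) the lower ones. Calcr and Oscar stayed under 1 TPM in every group, and the part of such cells in the Ctsk values was not tested.

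The aspartic protease gene Ctsd was not called in any comparison. At 3.5 h it read 7953, 8324, 10252, 6150.1 and 7408 CPM in control, 5235, 7053, 8952, 7883 and 5347 CPM with VWF and 10438, 6560.3, 9596 and 9696 CPM with LPS. The 3 groups overlapped, and the changes were -0.30 ± 0.16 (SE, adjusted p = 0.179) for VWF and 0.13 ± 0.17 (SE, adjusted p = 0.509) for LPS. At 16 h it read 8237, 7570.2, 7984, 7694 and 26090.4 CPM in control, 8615, 8622, 7493, 15517 and 8714 CPM with VWF and 5499.9, 7283, 5548 and 14253 CPM with LPS.

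In each of the 16 h groups, 1 library that stood apart held the highest Ctsd value by a wide margin. With all libraries, the changes were -0.35 ± 0.39 (SE, adjusted p = 0.596) for VWF and -0.55 ± 0.50 (SE, adjusted p = 0.382) for LPS. Without the 3 libraries they were -0.0074 (adjusted p = 0.943) and -0.40 (adjusted p = 0.00934), so that LPS passed in the lower direction below 2-fold, and VWF against LPS was 0.43 (adjusted p = 0.0137). Under scaling by total counts with all libraries, LPS gave -1.04 (adjusted p = 0.0481), where the median of all genes was -0.57. From 3.5 h to 16 h with VWF, Ctsd gave 0.57 (adjusted p = 0.0386) with all libraries and 0.33 (adjusted p = 0.0824) without VWF replicate 4.

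**Figure D4:**
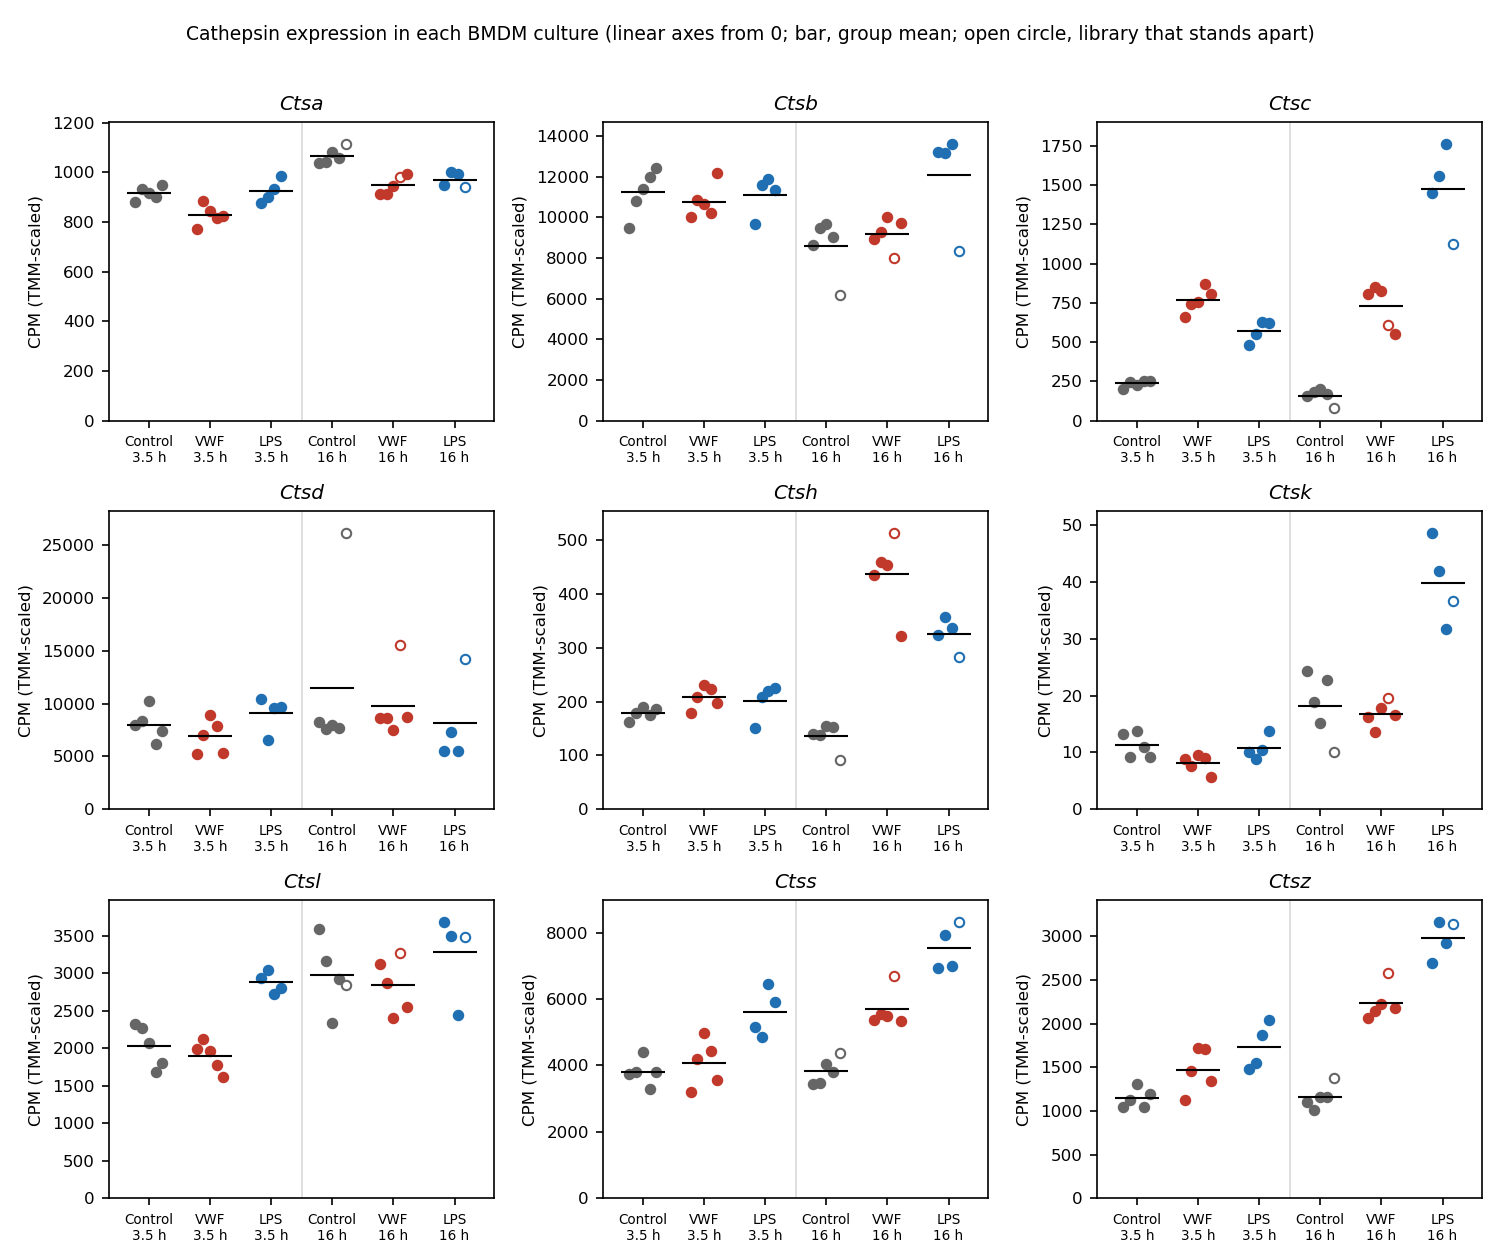
CPM of each cathepsin in each of the 28 cultures (linear axes from 0); points are cultures in replicate order, black bars group means and open circles the 3 libraries that stood apart at 16 h. Ctsc, Ctsh, Ctss and Ctsz in both agonists at 16 h, and Ctsk with LPS at 16 h, lie above control without overlap. The spread of Ctsd at 16 h is set by the open circles.

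Between VWF and LPS at 16 h, 2 of 9 cathepsins were lower with VWF (Ctsc and Ctsk) and 0 higher, where 11.1% of all genes were called higher and 14.5% lower. By adjusted p alone, 6 passed, where 60.5% of all genes did. Beside Ctsc, Ctsk, Ctsb and Ctsh, these were Ctss (-0.43, adjusted p = 0.00931) and Ctsz (-0.44, adjusted p = 0.00422), whose cultures did not overlap. Scaling by total counts brought Ctss to 0.0066 and Ctsz to 0.00081 where the median of all genes was 0.44. It left 0 cathepsins called, where 1726 of 7574 genes were called higher and 700 lower. With the replicate number as a block 1 cathepsin was called, Ctsk (-1.26, adjusted p = 1.55e-04), where 863 of 7574 genes were called higher and 1080 lower.

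Over time without agonist, 0 of 9 cathepsins were called, where 4.12% of all genes were called higher and 4.99% lower. By adjusted p alone 5 passed, where 41.4% of all genes did. Of these 3 were higher at 16 h than at 3.5 h, Ctsk (0.74, adjusted p = 0.0230), Ctsl (0.61, adjusted p = 0.00743) and Ctsa (0.28, adjusted p = 0.0143), and 2 lower, Ctsc (-0.55, adjusted p = 0.0443) and Ctsh (-0.34, adjusted p = 0.0375). From 3.5 h to 16 h with VWF, 2 rose and 0 fell, Ctsh by 1.13 ± 0.12 (SE, adjusted p = 8.26e-06) and Ctsk by 1.09 ± 0.15 (SE, adjusted p = 6.24e-05), where 9.15% of all genes were called higher and 12.2% lower; the value for Ctsc was -0.023 (adjusted p = 0.889). The Ctsk change was 0.98 without VWF replicate 5 at 3.5 h. With LPS, 2 rose and 0 fell, Ctsk by 1.95 ± 0.18 (SE, adjusted p = 2.48e-05) and Ctsc by 1.43 ± 0.14 (SE, adjusted p = 2.61e-05), where 14.6% of all genes were called higher and 13.5% lower. By adjusted p alone, 7 passed with VWF, where 68.0% of all genes did, and 5 with LPS, where 60.9% did. The shortest of 5 length classes of genes had medians of 0.30 in control, 0.26 with VWF and -0.054 with LPS over this interval, and the longest class -0.23, -0.34 and -0.075.

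The effect of LPS changed with time for 3 of the 9 cathepsins, all upward, where 13.5% of all genes were called higher and 12.8% lower. These were Ctsc by 1.99 ± 0.26 (SE, adjusted p = 9.02e-06), Ctsk by 1.21 ± 0.31 (SE, adjusted p = 0.00348) and Ctsh as above. Without the fold threshold 6 passed for LPS, where 48.8% of all genes did, and 3 for VWF, where 32.4% did, Ctsz and Ctss being among them for both agonists and Ctsb (0.53, adjusted p = 0.0396) for LPS. For Ctsc, the interaction of VWF with time was 0.51 ± 0.24 (SE, adjusted p = 0.120) and did not pass. Without the 3 libraries that stood apart, the called interactions were 1.29 for Ctsh with VWF, and 1.94, 1.11 and 1.07 for Ctsc, Ctsk and Ctsh with LPS. The shortest of 5 length classes of genes had a median of -0.33 and the longest of 0.13 in the interaction of LPS with time.

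**Figure D5:**
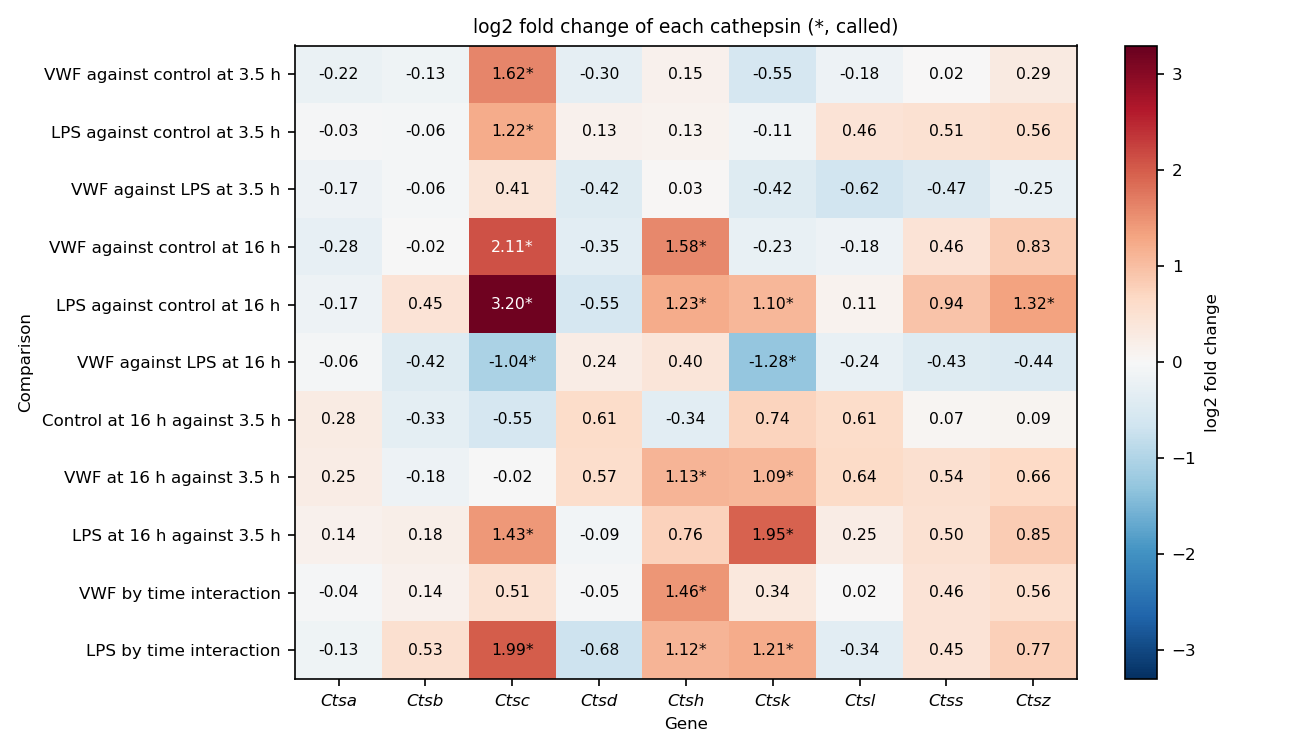
Log2 fold change of the 9 cathepsins in the 11 comparisons, printed in each cell and coloured from blue (lower) to red (higher), with asterisks on called genes. The columns of Ctsc, Ctsh, Ctsk and Ctsz hold all 18 asterisks, and those of Ctsa, Ctsb, Ctsd, Ctsl and Ctss none.

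Of the genes around the cathepsins, the inhibitors held the largest change. Of 13 inhibitors, 4 were tested, and Cst7 alone was called in each comparison of an agonist with control, always higher. All genes called higher made up 9.18% with VWF and 12.8% with LPS at 3.5 h, and 4.55% and 15.3% at 16 h. Cst7 encodes cystatin F, a secreted and lysosomal inhibitor of cathepsin C and other cysteine cathepsins. It was at 49.5 ± 10.2 against 1.86 ± 0.823 CPM (SD) with LPS at 3.5 h, a change of 4.67 ± 0.31 (SE, adjusted p = 1.77e-07), and at 206 ± 24.7 against 1.77 ± 0.484 CPM (SD) with LPS at 16 h, a change of 6.82 ± 0.22 (SE, adjusted p = 3.05e-08). VWF gave 1.87 ± 0.32 (SE, adjusted p = 4.96e-04) at 3.5 h and 1.30 ± 0.23 (SE, adjusted p = 0.00140) at 16 h. Cstb, which encodes the cytosolic inhibitor cystatin B, passed below 2-fold at 16 h, at 0.94 (adjusted p = 4.53e-04) for VWF and 0.98 (adjusted p = 2.22e-04) for LPS.

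The 4 MiT/TFE genes encode factors that bind the E-box of lysosomal promoters, and at 3.5 h 2 were called for VWF and 3 for LPS. Shares of all genes called higher and lower were 9.18% and 5.52% for VWF and 12.8% and 11.8% for LPS. Tfeb fell by 1.78 with VWF and by 3.39 with LPS on the log2 scale (adjusted p = 1.35e-07 and 8.34e-10). Tfec rose by 2.86 ± 0.13 (SE, adjusted p = 1.29e-08) with VWF and 3.03 ± 0.13 (SE, adjusted p = 6.57e-09) with LPS, and Mitf rose by 1.16 ± 0.12 (SE, adjusted p = 8.49e-06) with LPS and gave 0.73 (adjusted p = 2.52e-04) with VWF. At 16 h, 0 of 4 were called for either agonist. Shares of all genes called higher and lower were then 4.55% and 4.15% for VWF and 15.3% and 12.4% for LPS.

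Among 10 sorting and activation genes, 0 were called for VWF at 3.5 h and 2 lower for LPS at 3.5 h. At 16 h, 1 was called lower for VWF, and 2 higher and 1 lower for LPS. Shares of all genes called higher and lower at 3.5 h were 9.18% and 5.52% for VWF and 12.8% and 11.8% for LPS. At 16 h they were 4.55% and 4.15% for VWF and 15.3% and 12.4% for LPS. M6pr, the cation-dependent mannose 6-phosphate receptor that carries hydrolases to lysosomes, rose with LPS at 16 h (1.52 ± 0.10 SE, adjusted p = 1.01e-06), as did Lgmn, a legumain gene whose product activates cathepsins (1.12 ± 0.31 SE, adjusted p = 0.0125). Sort1, another sorting receptor, fell with VWF (-1.25, adjusted p = 0.00409) and LPS (-3.23, adjusted p = 2.61e-06) at 16 h. Gnptab, a subunit of the enzyme that starts the mannose 6-phosphate tag, and Lrp1 fell with LPS at 3.5 h, at -1.42 (adjusted p = 2.11e-05) and -1.14 (adjusted p = 1.42e-04).

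Shares of all genes called higher and lower were 9.18% and 5.52% for VWF and 12.8% and 11.8% for LPS at 3.5 h. At 16 h they were 4.55% and 4.15% for VWF and 15.3% and 12.4% for LPS. Of 10 partners and substrates, 0 were called for either agonist at 3.5 h or for VWF at 16 h. For LPS at 16 h, 3 were called higher. These were Grn, a progranulin gene whose product cathepsins cleave (1.01 ± 0.10 SE, adjusted p = 2.66e-05), and the endosomal receptors Tlr7 (1.62 ± 0.33 SE, adjusted p = 0.00217) and Tlr9 (3.41 ± 0.86 SE, adjusted p = 0.00797). The Tlr9 cultures overlapped between LPS and control, at 21.3 ± 16.2 against 1.95 ± 1.16 CPM (SD). Of 14 other cathepsins only Ctsf and Ctso were tested, and 1 was called against control, Ctsf, lower with LPS at 16 h (-1.15 ± 0.33 SE, adjusted p = 0.0146). Ctsf, another papain-like cathepsin, was also called lower from 3.5 h to 16 h with LPS (-1.79 ± 0.23 SE, adjusted p = 1.46e-04) and in the interaction of LPS with time (-1.36 ± 0.37 SE, adjusted p = 0.00631).

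Over the 6 group means of log2 CPM, each centred on its own mean, the genes nearest to each called cathepsin were taken from 8867 genes by root mean square difference on the log2 scale. For Ctsc, whose means spanned 3.28, these were BE692007 (0.17), Slc31a2 (0.22) and Slc31a1 (0.27). For Ctsh they were Adgre1 (0.16), Lrmda (0.21) and Cstb (0.21), of which Adgre1 encodes the macrophage surface protein F4/80. For Ctsk they were Nat9 (0.092), 1500011B03Rik (0.14) and Tmub1 (0.15), and for Ctsz Isoc1 (0.10), Shisa5 (0.10) and Psmb2 (0.11). No cathepsin was among the 3 nearest genes of another.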

How the data were processed

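RNA of 28 BMDM cultures was sequenced as paired 150-base reads, and the authors deposited raw read counts per gene. The submitters' processing notes name STAR and GRCm38/mm10, and neither annotation nor strand setting of the counting is named in the sources used here. Symbols and exon lengths were taken from GENCODE M21, with the exons of all transcripts of a gene merged. Genes with at least 10 TPM in at least 1 culture of a comparison were tested with the edgeR (4.0.16, R 4.3.3, limma 3.58.1) quasi-likelihood test after TMM scaling, with Benjamini-Hochberg adjustment, and called at an adjusted p below 0.05 and a log2 fold change of at least 1. In all, 11 comparisons were fitted, each on its own groups. Total counts per library ran from 41131209 to 77699206.

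Alternatives were DESeq2 (1.42.0), median-of-ratios factors, scaling by total counts, other filters, a joint fit of all groups, replicate number as block, no fold threshold, leaving out each culture, leaving out the 3 libraries that stood apart and a length covariate. Deviations of same-numbered samples correlated at over 0.1 in each of the 4 pairs of VWF with LPS at 16 h (0.16 to 0.78) and in no other comparison did every pair do so. Of 52 pairs of replicates, none agreed within sampling noise. The script was tested on simulated data. The members, the gene lists and the tests were chosen with earlier results of these data known. Named beside the 9 cathepsins are list members called in at least 1 of the 4 comparisons with control, at most 6 per list, ordered by the number of those comparisons, and the 3 genes nearest to each called cathepsin in pattern. Cstb and the single marker genes of macrophages and other cell types were named after their values were seen. The summed level of the B cell markers is not reported here.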

Additional observations from a re-analysis of the deposited data

Results flagged for a closer look

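In 6 of 54 groups of 4 or 5 cultures, 1 culture lay far from the others by Dixon's test, which chance gives in about 1 in 20 independent groups. The 54 groups hold 9 genes in the same 28 cultures and are not independent, so the number cannot be judged against that rate. Ctsd was highest in control replicate 5 at 16 h, at 26090.4 CPM against 8237 CPM in the nearest culture, and in VWF replicate 4 at 16 h, at 15517 CPM against 8714 CPM in the nearest culture. Ctss was highest in the same VWF replicate, at 6702 CPM against 5549 CPM in the nearest culture. Ctsh was lowest in control replicate 5 at 16 h, at 91.6 CPM against 138 CPM in the nearest culture. Ctsb was lowest in LPS replicate 4 at 16 h, at 8334 CPM against 13146 CPM in the nearest culture. All of these are libraries that stood apart in gene length. Ctsl was lowest in LPS replicate 3 at 16 h, at 2446 CPM against 3489.5 CPM in the nearest culture, a library that did not stand apart.

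The effect of an agonist differed between 3.5 h and 16 h by a test of the interaction. For VWF the log2 differences were 1.46 for Ctsh, 0.56 for Ctsz and 0.46 for Ctss. For LPS they were 1.99 for Ctsc, 1.21 for Ctsk, 1.12 for Ctsh, 0.77 for Ctsz, 0.53 for Ctsb and 0.45 for Ctss.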

How the results depend on the processing

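Of the 18 calls, 11 held under every alternative run, and 6 were lost when libraries were scaled by total counts. With no fold threshold, cathepsins called numbered 4 for VWF against control at 3.5 h, 4 for LPS over control at 3.5 h, 3 for VWF against LPS at 3.5 h, 5 for VWF against control at 16 h, 6 for VWF against LPS at 16 h, 5 for control at 16 h against 3.5 h, 7 for VWF at 16 h against 3.5 h, 5 for LPS at 16 h against 3.5 h, 3 for the interaction of VWF with time and 6 for the interaction of LPS with time. Scaling by total counts left 0 for LPS over control at 3.5 h, 2 for LPS over control at 16 h and 0 for VWF against LPS at 16 h. Over all genes, it moved the numbers called higher and lower from 753 and 453 to 612 and 643 for VWF against control at 3.5 h, from 1047 and 963 to 708 and 2157 for LPS over control at 3.5 h, from 353 and 503 to 751 and 340 for VWF against LPS at 3.5 h, from 1221 and 989 to 793 and 2253 for LPS over control at 16 h, from 837 and 1095 to 1726 and 700 for VWF against LPS at 16 h and from 474 and 697 to 612 and 570 for the interaction of VWF with time. Without the expression filter, the median of all genes for LPS against control at 3.5 h was -0.16. Scaling by total counts also turned the sign of Ctsh -0.074 and Ctss -0.20 for VWF against control at 3.5 h, Ctsd -0.38, Ctsh -0.40, Ctsl -0.059 and Ctss -0.015 for LPS over control at 3.5 h, Ctsa 0.11, Ctsb 0.23 and Ctsz 0.034 for VWF against LPS at 3.5 h, Ctsb -0.091 and Ctsl -0.44 for LPS over control at 16 h, Ctsa 0.38, Ctsb 0.011, Ctsl 0.21, Ctss 0.0066 and Ctsz 0.00081 for VWF against LPS at 16 h, Ctsc 0.070 for VWF at 16 h against 3.5 h and Ctsa 0.11 and Ctsd 0.17 for the interaction of VWF with time.

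With all 6 groups in one fit, the sign turned for Ctss -0.0070 for VWF against control at 3.5 h. Without the expression filter, the sign turned for Ctsa 0.0042 for LPS over control at 3.5 h, Ctsh -0.011 for VWF against LPS at 3.5 h, Ctsb 0.050 for VWF against control at 16 h and Ctss -0.0063 for control at 16 h against 3.5 h. With edgeR's filterByExpr, the sign turned for Ctsa 0.041 and Ctsb 0.017 for LPS over control at 3.5 h, Ctsh -0.023 for VWF against LPS at 3.5 h and Ctsb 0.043 for VWF against control at 16 h. With the length index as a covariate, the sign turned for Ctsd 0.17 for the interaction of VWF with time. Without the 3 libraries that stood apart, the sign turned for Ctss -0.011 and Ctsz -0.0070 for control at 16 h against 3.5 h, Ctsc 0.035 for VWF at 16 h against 3.5 h and Ctsd 0.30 and Ctsl -0.041 for the interaction of VWF with time. The last 2 of these settings were chosen after seeing the data. With the replicate number as a block, 1 cathepsin was called for VWF against LPS at 16 h, Ctsc was -0.95 there and Ctsk 0.96 for LPS against control at 16 h, both short of 2-fold, and Ctsd turned to 0.053 for the interaction of VWF with time. The block ended no other call. The labels do not say whether same-numbered samples share a source, and every such pair deviated together only between VWF and LPS at 16 h. There, replicates 3 and 4 correlated most (0.78 and 0.76). Their length indices were also alike, at -0.40 and -0.48 for replicate 3 and 0.54 and 0.70 for replicate 4, so the 2 cannot be told apart. Leaving out each culture in turn gave between 1 and 2 called cathepsins for VWF against LPS at 16 h and 1 and 2 called cathepsins for VWF at 16 h against 3.5 h. Values whose sign turned in this step ranged from -0.051 to 0.074 for Ctss in VWF against control at 3.5 h, -0.072 to 0.082 for Ctsh in VWF against LPS at 3.5 h, -0.11 to 0.029 for Ctsb in VWF against control at 16 h, -0.58 to 0.21 for Ctsd in VWF against control at 16 h, -0.98 to 0.033 for Ctsd in LPS over control at 16 h, -0.0015 to 0.66 for Ctsd in VWF against LPS at 16 h, -0.011 to 0.10 for Ctss in control at 16 h against 3.5 h, -0.0070 to 0.13 for Ctsz in control at 16 h against 3.5 h, -0.079 to 0.067 for Ctsc in VWF at 16 h against 3.5 h, -0.51 to 0.084 for Ctsd in LPS at 16 h against 3.5 h, -0.30 to 0.55 for Ctsd in the interaction of VWF with time and -0.046 to 0.10 for Ctsl in the interaction of VWF with time. No other value changed sign. The cause of these changes was not tested.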
